A study of Homo sapiens with 7 samples.

Results

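The genes described were 10 transcription factor genes of the epithelial KLF, ETS, Grainyhead and OVOL families: KLF3, KLF4, KLF5, KLF6, ELF3, EHF, GRHL1, GRHL2, OVOL1 and OVOL2. They were chosen by name, out of 20033 protein-coding genes. At each of them, H3K4me1 was read from every deposited interval that touched the GENCODE gene body or the 50 kb on either side of it, a stretch called the window of the gene. An interval is a region called by the authors as enriched in the ChIP over input DNA. The series profiled KMT2D, EBF2 and H3K4me1 by ChIP-seq in SW1990, an established human pancreatic cancer cell line, with 6 ChIP libraries and 1 input among its 7 samples. NC is labelled as a negative control and KMT2D-KD as a knockdown of KMT2D, and shRNA is given as the treatment of both. Each target and condition had 1 library, so each difference given here is between 2 libraries, with no replicate check and no test. Neither the residual KMT2D level nor RNA was analysed here, so the values describe a histone mark around genes and not their expression.

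KLF proteins are zinc finger factors that bind GC-rich and CACCC-type elements. KLF4 and KLF5 act in epithelial renewal and differentiation, KLF6 is induced by stress and injury, and KLF3 acts largely as a repressor. ELF3 and EHF are ETS factors whose expression is largely limited to epithelia. GRHL1 and GRHL2 belong to the Grainyhead family, which maintains cell junctions and barrier function, while OVOL1 and OVOL2 are zinc finger repressors that hold back mesenchymal genes. H3K4me1, monomethylated lysine 4 of histone H3, marks enhancers and the flanks of active promoters, and KMT2D is a histone methyltransferase that writes it.

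To show the DNA under the mark, the 200 bases around the summit of the strongest interval of each gene in each library were read from hg38 for the 9 genes outside the chromosome of GRHL2. Of these 17 stretches, 9 held a motif searched for, and 4 of them a motif of the families of the 10 genes. The share of all summit windows with any of these motifs was not computed, so 9 cannot be called high or low. The KLF4 stretches of both libraries overlap and hold the same AP-1 match. The following stretches, all given on the plus strand, were chosen to show ETS, OVOL and Grainyhead motifs found and the interval with the highest −log10 q of all 10 genes, which was near ELF3. Capitals mark the matched letters on either strand: GGAATG for TEAD, CCGGAAG for epithelial ETS factors, CCGTTA for OVOL and AACNNGTT for Grainyhead.
KLF6, NC library, chr10:3761560-3761759, TEAD and ETS letters: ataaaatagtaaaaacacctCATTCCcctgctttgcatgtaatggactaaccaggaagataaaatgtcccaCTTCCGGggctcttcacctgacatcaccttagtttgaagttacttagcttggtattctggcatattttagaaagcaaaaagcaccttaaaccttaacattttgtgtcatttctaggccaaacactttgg
ELF3, KMT2D-KD library, chr1:202022757-202022956, TEAD letters: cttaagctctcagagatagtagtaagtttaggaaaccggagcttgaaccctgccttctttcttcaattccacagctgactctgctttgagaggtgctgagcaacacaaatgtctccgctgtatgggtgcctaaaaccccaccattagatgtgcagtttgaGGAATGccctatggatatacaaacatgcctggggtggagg
EHF, NC library, chr11:34644471-34644670, OVOL letters: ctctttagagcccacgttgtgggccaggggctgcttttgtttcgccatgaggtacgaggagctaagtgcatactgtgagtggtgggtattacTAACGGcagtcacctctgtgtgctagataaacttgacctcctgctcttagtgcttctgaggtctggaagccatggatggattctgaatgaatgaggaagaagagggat
GRHL1, KMT2D-KD library, chr2:9972068-9972267, Grainyhead letters: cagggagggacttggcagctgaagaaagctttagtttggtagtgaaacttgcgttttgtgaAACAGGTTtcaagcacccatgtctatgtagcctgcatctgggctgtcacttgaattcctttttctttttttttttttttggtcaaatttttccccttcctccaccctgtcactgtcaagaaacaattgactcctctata

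The KLF6 stretch lay about 23.6 kb from the 5′ end, beyond the end of the gene, and held both a TEAD and an ETS match. In EHF the stretch was intronic. The GRHL1 stretch, also intronic, carried Grainyhead letters within the gene of a Grainyhead factor. These are matches of letters and not measured binding sites.

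Across all summit windows of the 10 genes, such matches were few, and they are given beside their share in the whole lists. AACNNGTT was present in 5 of 108 NC windows (4.63%, 95% exact binomial interval 1.52 to 10.5%) and in 7 of 150 KMT2D-KD windows (4.67%, 1.90 to 9.38%), compared with 3.36% and 3.04% of all windows of the same length in the NC and KMT2D-KD lists. Such intervals cover counting error only, here and below. The narrower Grainyhead form AACCGGTT, which is contained in the first, was found in 0 of 108 and 0 of 150 windows, against 0.0216% and 0.0228% of the lists. GGGNGGGG, the KLF letters, occurred in 4 NC windows (3.70% against 4.48% of the list) and 5 KMT2D-KD windows (3.33% against 5.29%). CCGGAAG occurred in 2 NC windows (1.85% against 0.433%), 1 at KLF6 and 1 at GRHL2, and in 0 of 150 KMT2D-KD windows, against 0.558% of that list. CCGTTA was seen in 1 window of each library, 0.926% against 0.850% for NC and 0.667% against 0.832% for KMT2D-KD. AP-1 letters (TGANTCA) were found in 9 NC windows (8.33% against 8.06%) and 7 KMT2D-KD windows (4.67% against 7.78%). TEAD letters were found in 12 NC windows (11.1% against 12.4%) and 17 KMT2D-KD windows (11.3% against 12.1%). FOXA letters (TGTTTAC) occurred in 4 NC windows (3.70% against 3.16%) and 6 KMT2D-KD windows (4.0% against 2.74%).

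The H3K4me1 lists held 64843 intervals in NC compared with 92135 in KMT2D-KD, giving a log2 ratio of 0.51 (95% counting interval 0.49 to 0.52). The depth recovered from the intervals was 9.89 fragments per 1000 bases in NC against 9.29 in KMT2D-KD, so the longer list came from the slightly shallower library. Among the 17338 protein-coding windows with an interval in either library, 78.4% held more intervals in KMT2D-KD than in NC. All 10 ductal or epithelial marker windows held intervals in both libraries, with a median of 3.28% of the window covered in NC compared with 4.79% in KMT2D-KD. The most densely marked were those of the keratin genes KRT7, at 23.2% and 35.7%, and KRT18, at 18.0% and 26.6%. Of 14 windows of leukocyte, endothelial, fibroblast, acinar and islet markers, 9 held an interval in NC against 11 in KMT2D-KD, with medians of 0.839% and 1.86%. The 14 went from 0 intervals in either library, as at COL3A1, PDGFRA and PRSS1, to 5.54% and 8.49% at the acinar gene CPA1, while the epithelial EPCAM stood at 0.287% and 2.02%.

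H3K4me1 covered more of the 10 windows in KMT2D-KD than in NC. Together the windows spanned 1466 kb and held 108 intervals in NC compared with 150 in KMT2D-KD, giving a log2 ratio of 0.47 (0.11 to 0.84). The covered length was 64.3 kb in NC against 101 kb in KMT2D-KD, or 4.39% and 6.89% of the windows, a log2 ratio of 0.65. Over the whole lists the log2 ratio of covered length was 0.62. The ratio of numbers was 0.18 (−0.21 to 0.56) when the KMT2D-KD list alone was shortened to the length of the NC list, and 0.03 (−0.59 to 0.65) for intervals touching the gene bodies alone, 46 in NC compared with 47 in KMT2D-KD. Its interval also included 0 for −log10 q of at least 5 (0.51, −0.08 to 1.12) and fold enrichment of at least 5 (0.41, −0.24 to 1.06). The same held with intervals within 1000 bases merged (0.32, −0.17 to 0.81) and with flanks of 10000 bases (0.18, −0.38 to 0.74). It excluded 0 for −log10 q of at least 10 (2, 0.37 to 4.04) and flanks of 100000 bases (0.52, 0.22 to 0.82). Whole-list ratios at these thresholds were not computed. In the whole lists, 97.4% of NC intervals had a −log10 q below 9.99, and 92.8% of KMT2D-KD intervals had one below 10.1. A −log10 q of 5 was reached by 25.3% of all NC and 32.4% of all KMT2D-KD intervals. The number of intervals was higher in KMT2D-KD at 9 of the 10 genes, against 78.4% of all windows, and EHF was the exception with 21 in NC against 19 in KMT2D-KD. Of the 9 genes with an interval in NC, which leaves out OVOL2, 5 had at least 2-fold the NC number in KMT2D-KD, namely KLF3, KLF4, KLF5, KLF6 and OVOL1, compared with 36.3% of all such windows. At least 2-fold the covered bases were present at 3 of the 9, KLF3, KLF6 and OVOL1, compared with 39.1%. At 0 genes was the NC number or covered length at least 2-fold the KMT2D-KD one, as it was in 4.79% and 4.01% of all windows.

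**Figure D1:**
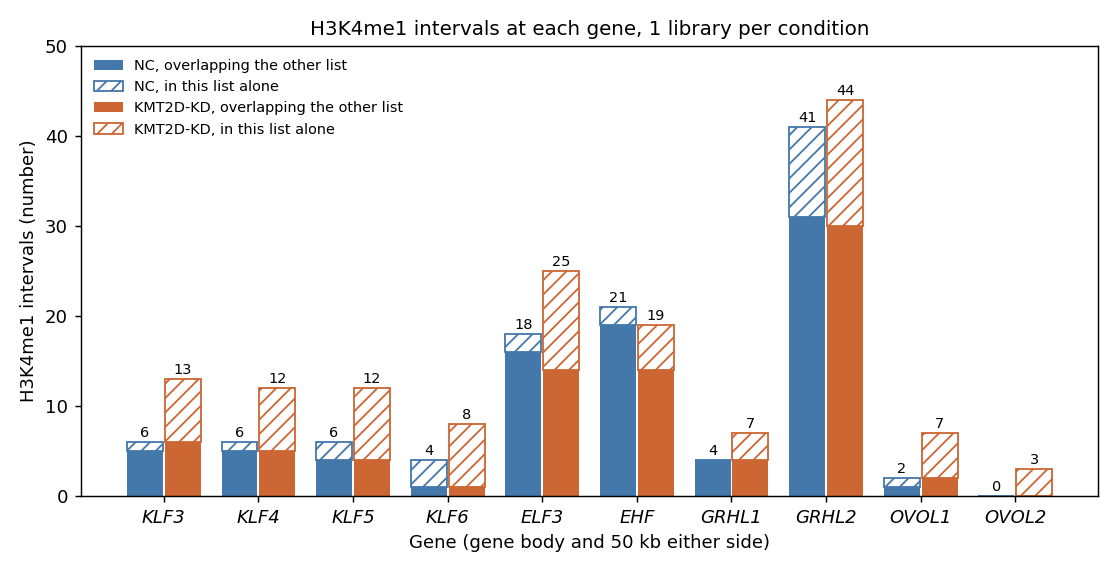
Number of H3K4me1 intervals (vertical axis) at each of the 10 genes (horizontal axis) in NC (blue) and KMT2D-KD (orange), 1 library each. Filled parts overlap an interval of the other library and hatched parts do not, and the hatched part is the larger one in KMT2D-KD at the 4 KLF genes, OVOL1 and OVOL2.

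The 10 genes fell into a densely and a sparsely marked set. ELF3, EHF and GRHL2 in NC had 8.37%, 10.7% and 10.2% of their windows covered, and in KMT2D-KD 16.6%, 13.5% and 13.0%. These levels lay above those of 98.1 to 99.1% of protein-coding windows in NC and 98.2 to 99.3% in KMT2D-KD. The other 7 genes ranged from 0% at OVOL2 to 2.69% at KLF5 in NC, and from 0.453% to 4.97% at the same genes in KMT2D-KD. The medians over all protein-coding windows were 0.682% and 1.40%. ELF3, EHF and GRHL2 held 80 of the 108 NC intervals and 88 of the 150 KMT2D-KD intervals, so that sums over the 10 genes rest mainly on them. When GRHL2 was left out, 67 intervals in NC stood against 106 in KMT2D-KD, giving a log2 ratio of 0.66 (0.21 to 1.13). Without both EHF and GRHL2, the numbers were 46 and 87, a log2 ratio of 0.92 (0.39 to 1.47). These omissions were chosen after the values were seen.

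**Figure D2:**
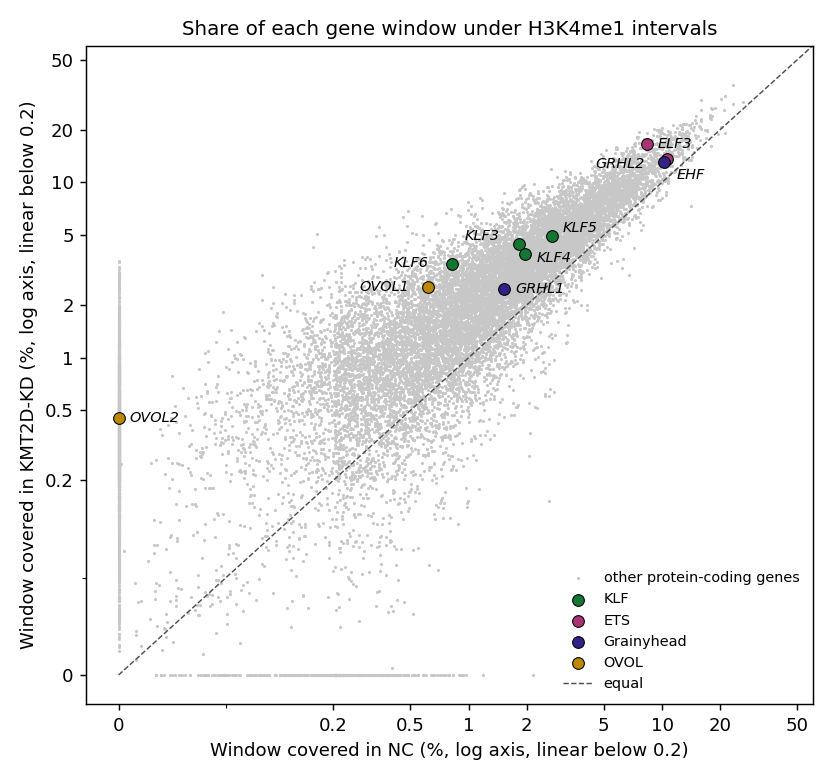
Percent of each window covered by H3K4me1 intervals in NC (horizontal axis) and KMT2D-KD (vertical axis), on log axes that are linear below 0.2%. Grey points are protein-coding genes with an interval in either library, coloured points the 10 genes by family, and the dashed line marks equal coverage. ELF3, EHF and GRHL2 sit at the upper end of both axes, and OVOL2 lies at 0 in NC.

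To see where the mark lay, intervals of both libraries were joined into clusters when 5 kb or less apart, a description added after the values were seen. The 10 windows held 51 clusters. Of these, 32 (62.7%) had intervals in both libraries, 15 (29.4%) in KMT2D-KD alone and 4 (7.84%) in NC alone. The shares over the 44925 clusters of the whole lists were 55.3%, 32.5% and 12.2%, so those at the 10 genes lay near the background. Within the 32 shared clusters, KMT2D-KD covered more bases than NC in 26. That share was not computed for the shared clusters of the whole lists, so 26 cannot be called high or low.

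**Figure D3:**
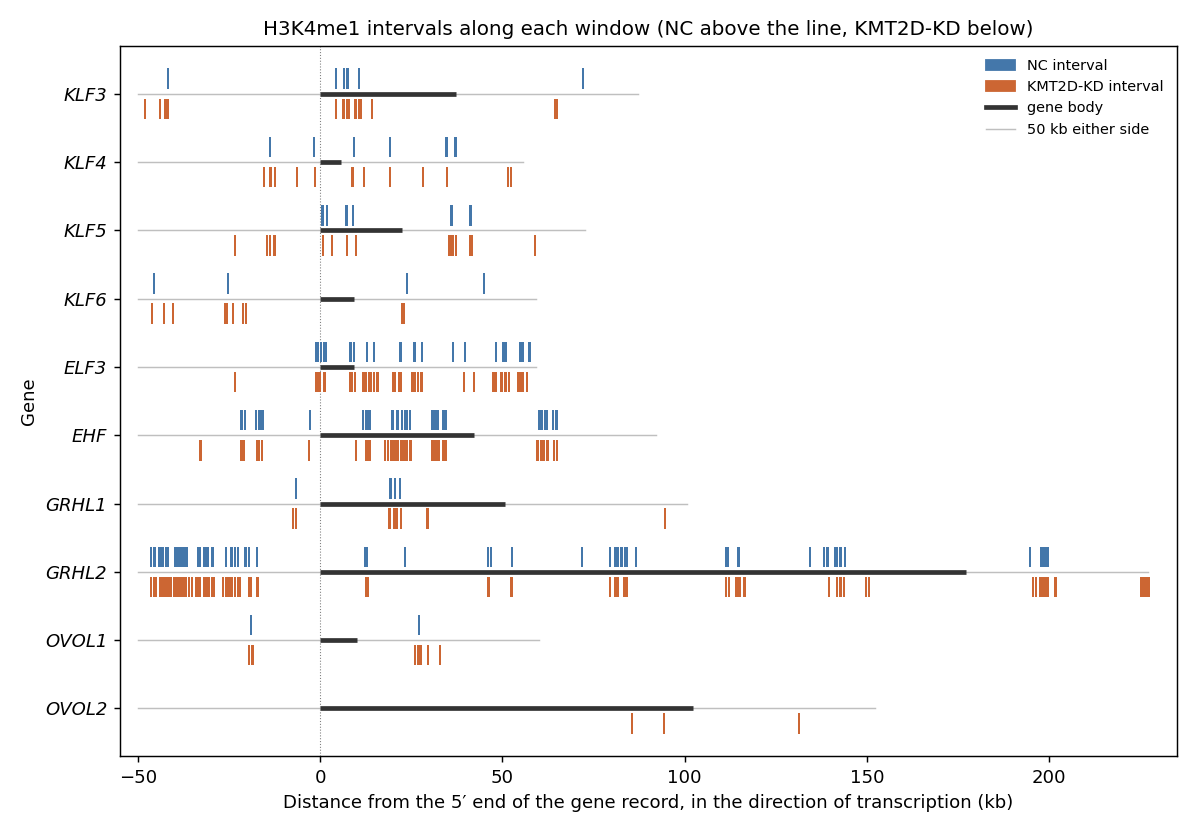
Positions of H3K4me1 intervals along each window as the distance in kb from the 5′ end of the gene record, counted in the direction of transcription. NC intervals (blue) are drawn above and KMT2D-KD intervals (orange) below each line, black bars are gene bodies, and narrow intervals are drawn at a fixed minimum width. The intervals form clusters that recur in both libraries, as at EHF and upstream of GRHL2, whereas the body of KLF4 and that of KLF6 hold none.

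The KLF windows held 22 intervals in NC compared with 45 in KMT2D-KD, giving a log2 ratio of 1.03 (0.27 to 1.84), and their covered length was 8.77 kb and 20.1 kb. Of the 45 KMT2D-KD intervals, 16 overlapped one in NC (35.6%, 21.9 to 51.2%), while the share over the whole list was 46.6%. Of the 22 NC intervals, 15 overlapped one in KMT2D-KD (68.2%, 45.1 to 86.1%), close to the 69.7% of the whole list. All 4 genes had more intervals in KMT2D-KD, yet for each gene alone the counting interval of the ratio included 0.

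KLF3 (ENSG00000109787.13) lies on the plus strand of chromosome 4 at 38664197 to 38701517. Its window held 6 intervals and 2.50 kb of H3K4me1 in NC against 13 intervals and 6.15 kb in KMT2D-KD, giving a log2 ratio of covered length of 1.30. On all of chromosome 4, the log2 ratio of interval numbers was 0.87, the highest of the chromosomes that carry the 10 genes, and the part of this in the KLF3 value was not tested. The marked core was the intronic stretch from 4.0 to 14.2 kb after the 5′ end, with 4 intervals in NC against 8 in KMT2D-KD. The strongest interval of both libraries lay there, with 14 fragments at its summit in NC compared with 16 in KMT2D-KD. A pair of intervals 64.1 to 65.2 kb downstream was present in KMT2D-KD alone, and an interval at 71.7 kb in NC alone.

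KLF4 (ENSG00000136826.15) lies on the minus strand of chromosome 9 at 107484852 to 107490482. It had 6 intervals covering 2.08 kb in NC against 12 covering 4.10 kb in KMT2D-KD, giving a log2 ratio of covered length of 0.98. The gene body carried 0 intervals in either library. The nearest interval started 1595 bases upstream of the 5′ end in NC and 1569 bases upstream in KMT2D-KD. The strongest of each library lay further upstream, with 17 fragments at the summit in KMT2D-KD and 15 in NC. KMT2D-KD had 2 further clusters, at 27.9 and 51.3 kb downstream, that NC lacked, and NC had no cluster of its own.

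KLF5 (ENSG00000102554.14), on the plus strand of chromosome 13 at 73054976 to 73077541, had 6 intervals covering 3.30 kb in NC compared with 12 covering 6.09 kb in KMT2D-KD, giving a log2 ratio of covered length of 0.89. The difference was uneven along the window. From the 5′ end to 9.8 kb into the gene, NC and KMT2D-KD had 4 intervals each, covering 1794 and 1603 bases. The interval beside the 5′ end, the strongest of KLF5 in NC, had 16 fragments at its summit in NC against 11 in KMT2D-KD. Beyond the gene, 35.1 to 42.1 kb from the 5′ end, coverage was 1502 bases in NC and 3176 in KMT2D-KD. An interval there had 13 fragments at its NC summit, 36.1 kb from the 5′ end, and 21 at its KMT2D-KD summit, at 35.5 kb. In KMT2D-KD it was the strongest of the window and 1592 bases wide compared with 542. Upstream, 4 intervals between 12.7 and 23.6 kb before the gene were listed for KMT2D-KD alone.

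KLF6 (ENSG00000067082.15), on the minus strand of chromosome 10 at 3775996 to 3785281, was the least marked KLF gene in both libraries. It held 4 intervals covering 0.895 kb in NC compared with 8 covering 3.75 kb in KMT2D-KD, and its log2 ratio of covered length, 2.07, was higher than that of 91.5% of the 14764 windows with intervals in both libraries. A cluster 20.4 to 26.5 kb upstream had 1 interval in NC against 4 in KMT2D-KD, and another 40.4 to 46.4 kb upstream had 1 and 3. The nearest interval of either library lay more than 20 kb from the 5′ end. Only 1 of the NC intervals overlapped a KMT2D-KD interval, although 2 of the other 3 lay within 1000 bases of one. The NC interval with the ETS and TEAD letters ended 181 bases from a KMT2D-KD interval of 1103 bases.

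The ETS windows held 39 intervals in NC compared with 44 in KMT2D-KD, giving a log2 ratio of 0.17 (−0.48 to 0.83), while the covered length went from 24.3 to 37.4 kb. Of the NC intervals, 35 of 39 were found again (89.7%, 75.8 to 97.1%), compared with 69.7% of the whole NC list. These NC intervals had a median width of 488 bases against 369 in the whole NC list. Their median −log10 q was 4.52 against 3.52, and the part of width and strength in the share was not tested.

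ELF3 (ENSG00000163435.16), on the plus strand of chromosome 1 at 202007945 to 202017183, had 18 intervals in NC against 25 in KMT2D-KD. Coverage went from 9.15 kb to 18.1 kb, a log2 ratio of 0.98. Most of it lay downstream of the gene. From 7.9 to 28.0 kb after the 5′ end there were 7 intervals covering 4.20 kb in NC compared with 13 covering 8.29 kb in KMT2D-KD. Further downstream, from 36.2 to 57.4 kb, 7 intervals covered 3.06 kb in NC and 9 intervals covered 6.73 kb in KMT2D-KD. Around the 5′ end itself, 4 NC intervals stood against 2 wider KMT2D-KD intervals, which covered 1.89 and 2.62 kb. In the gene body alone there were 5 intervals in NC compared with 3 in KMT2D-KD, while the covered length was 1.90 and 2.24 kb. The interval with the highest −log10 q of all 10 genes lay at chr1:202022421-202023080 in KMT2D-KD. Its summit had 30 fragments and a fold enrichment over input of 11.8. The NC interval overlapping it had 17 fragments and 5.83 at its own summit. These summits lay 14.9 kb from the 5′ end in KMT2D-KD and 14.6 kb in NC, so the values are not from 1 position. After scaling to depth, the log2 ratio of summit fragments was 0.91 (0.004 to 1.86).

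EHF (ENSG00000135373.13) lies on the plus strand of chromosome 11 at 34621093 to 34663288. It was the gene with fewer intervals in KMT2D-KD, 19 compared with 21, but with more covered length, 19.3 kb compared with 15.2 kb, a log2 ratio of 0.34. The median width of its intervals was 695 bases in NC against 805 in KMT2D-KD. In the stretch of the gene from 9.5 to 25.2 kb, 8 NC intervals covered 5.77 kb and 7 KMT2D-KD intervals 8.24 kb. In the stretch from 30.4 to 34.9 kb both libraries had 2 intervals, covering 3.69 and 3.74 kb. The first of these had 21 fragments at its summit in NC compared with 31 at its own summit in KMT2D-KD. Upstream of the gene, from 15.5 to 22.0 kb, coverage was about the same, with 2996 bases in NC against 2864 in KMT2D-KD. All but 1 of the NC clusters and KMT2D-KD clusters of EHF were shared, and the other was a 178-base interval 33.0 kb upstream in KMT2D-KD.

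The Grainyhead windows held 45 intervals in NC compared with 51 in KMT2D-KD, giving a log2 ratio of 0.18 (−0.43 to 0.79), with 30.6 and 39.8 kb covered. GRHL1 (ENSG00000134317.18), on the plus strand of chromosome 2 at 9951693 to 10002277, had 4 intervals covering 2.31 kb in NC against 7 covering 3.69 kb in KMT2D-KD, giving a log2 ratio of covered length of 0.68. All 4 NC intervals were found again. Of these, 3 lay in an intron from 18.7 to 22.2 kb, among them the interval with the Grainyhead letters, whose summit had 13 fragments in each library. The remaining NC interval lay 6.5 kb upstream, with 15 fragments in NC compared with 11 in KMT2D-KD. An interval 94.4 kb downstream, seen in KMT2D-KD alone, lay in a coding exon of KLF11, a neighbouring KLF gene, and it is counted for both genes.

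GRHL2 (ENSG00000083307.12), on the plus strand of chromosome 8 at 101492439 to 101669726, is the longest of the genes and held the largest number of intervals, 41 in NC against 44 in KMT2D-KD. They covered 28.3 and 36.2 kb of a window of 277 kb, a log2 ratio of 0.36. The main cluster stretched from 46.7 to 16.7 kb upstream of the gene, where 17 NC intervals covered 14.7 kb and 19 KMT2D-KD intervals 19.4 kb. It held the strongest GRHL2 interval of each library, with 21 fragments at the summit in NC compared with 24 in KMT2D-KD. Within the gene body, coverage was 11.4 kb in both libraries, from 20 intervals in NC against 17 in KMT2D-KD. Some intronic clusters had less in KMT2D-KD, as at 134.2 to 144.1 kb, with 3.10 kb in NC compared with 2.30 kb in KMT2D-KD. The lowest ratio of summit fragments of all 10 genes, 24 in NC against 14 in KMT2D-KD, lay in that cluster, with a log2 value of −0.69 (−1.75 to 0.32) after scaling to depth. Beyond the 3′ end, 4 NC and 8 KMT2D-KD intervals lay within the neighbouring gene NCALD, among them 3 KMT2D-KD intervals past 225 kb with none in NC.

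The OVOL windows were nearly empty in NC, with 2 intervals against 10 in KMT2D-KD, giving a log2 ratio of 2.32 (0.09 to 5.55). OVOL1 (ENSG00000172818.10), on the plus strand of chromosome 11 at 65787063 to 65797214, had 2 intervals covering 0.683 kb in NC compared with 7 covering 2.78 kb in KMT2D-KD, giving a log2 ratio of covered length of 2.02. Its gene body held 0 intervals. From 25.7 to 33.1 kb downstream, 1 interval in NC stood against 5 in KMT2D-KD, and from 18.7 to 19.9 kb upstream 1 stood against 2. The upstream NC interval overlapped neither of them but lay 293 bases away. OVOL2 (ENSG00000125850.11), on the minus strand of chromosome 20 at 17956979 to 18059188, had 0 intervals in NC against 3 in KMT2D-KD, which is within the 3 counts that a count of 0 allows, so no fold is given. These intervals had 8, 13 and 11 summit fragments, and 2 of them lay in introns more than 85 kb from the 5′ end. The intronic ones cannot be assigned to OVOL2 alone, since the bodies of SNX5 and MGME1 in this window each held 1 KMT2D-KD interval. Absence of an interval here means that none was called at this depth.

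Intervals present in 1 library alone had the lower median strength, as they did over the whole lists. There the median −log10 q was 4.16 with a partner and 2.85 without for NC, and 5.30 and 3.32 for KMT2D-KD. Of the 108 NC intervals, 86 overlapped an interval in KMT2D-KD (79.6%, 70.8 to 86.8%), compared with 69.7% of the whole NC list. Of the 150 KMT2D-KD intervals, 80 overlapped an NC interval (53.3%, 45.0 to 61.5%), compared with 46.6% of the whole list. Intervals at the 10 genes were wider than those of the whole lists, with medians of 454 against 369 bases in NC. In KMT2D-KD the medians were 472.5 against 375 bases, and the part of width in these shares was not tested. The 22 NC intervals without a partner had a median −log10 q of 2.85, against 4.90 for those with one, and 0 of them reached 5, a level that 42 of the 86 others reached. The 70 KMT2D-KD intervals without a partner had a median −log10 q of 4.02, against 5.77, and 15 reached 5. The strongest of these 15 lay 26.5 kb downstream of the ELF3 5′ end, with 16 summit fragments, a −log10 q of 8.12 and an NC interval 230 bases away. Of the intervals without a partner, 13 of the 22 in NC and 31 of the 70 in KMT2D-KD had one of the other library within 1000 bases. That share was not computed over the whole lists, so these counts cannot be called high or low.

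**Figure D4:**
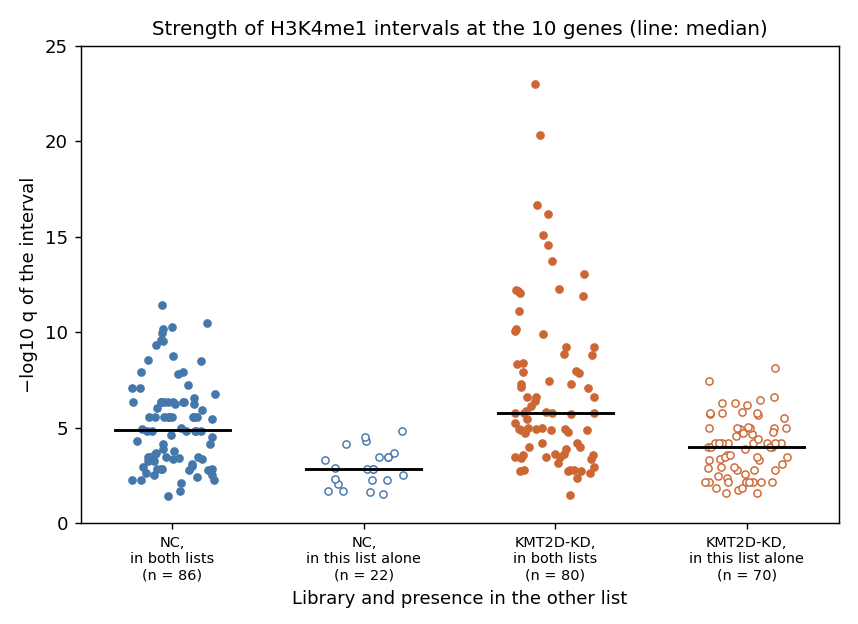
Strength of each interval at the 10 genes as −log10 q (vertical axis), for NC and KMT2D-KD intervals that do or do not overlap the other list. Each point is 1 interval and black lines are medians, which are 4.90 and 2.85 for NC and 5.77 and 4.02 for KMT2D-KD. All 22 NC intervals without a partner lie below 5.

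At intervals matched 1 to 1 between the libraries, the median difference in summit height was small. Such pairs had to be called in both libraries. Places called in 1 library alone, and intervals split or merged in the other, are therefore left out. In all, 58 NC intervals matched a single KMT2D-KD interval and the reverse, and their fragments at the summit were compared after scaling by the depth ratio of 0.940. Each library was read at its own summit, so the summits of a pair need not lie at the same base. The median log2 ratio was 0.20, compared with 0.09 over 33459 such pairs in the whole lists. Summit fragments were at least 1.5-fold higher in KMT2D-KD at 11 of the 58 (19.0%), against 12.7% of all pairs, and at least 1.5-fold lower at 2 (3.45%), against 3.05%. Of the 11, 5 were at ELF3, 2 at EHF, 2 at GRHL2, 1 at KLF3 and 1 at KLF5, and the 2 lower ones were at EHF and GRHL2. The pair with the highest ratio was at EHF, 60.1 kb from the 5′ end, with 10 fragments in NC compared with 20 in KMT2D-KD, giving a log2 ratio of 1.09 (−0.07 to 2.35). ELF3 had a higher scaled KMT2D-KD value at 11 of its 12 pairs, 1 of them with 18 fragments in each library, compared with 62.1% of all pairs, and its median log2 ratio was 0.41. Pairs within 1 window share their neighbourhood and their 2 libraries and are not replicates. Only 1 of the 58 had a counting interval that excluded 0, the ELF3 pair with 17 and 30 fragments. KMT2D-KD intervals were at least 1.5-fold wider at 22 of the 58 pairs, compared with 33.7% of all pairs, and the median width was 510 bases in NC against 704.5 in KMT2D-KD.

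**Figure D5:**
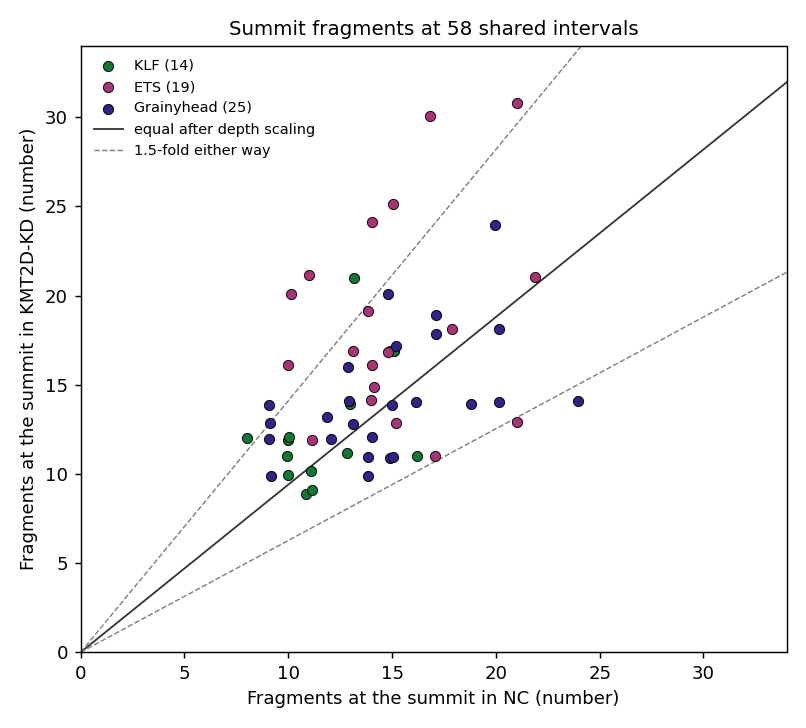
Fragments at the summit in NC (horizontal axis) and KMT2D-KD (vertical axis) for the 58 intervals matched between the libraries, coloured by family, with the number of pairs in brackets. The solid line marks equality after scaling to depth and the dashed lines 1.5-fold either way, and points are shifted slightly at random so that equal values can be seen. Most points lie between the dashed lines, and those above them are mainly ETS.

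Most intervals lay more than 5 kb from the 5′ ends. So did most of each window, since the windows span 106 to 277 kb. The numbers by distance below are not scaled to length. Within 1000 bases of a 5′ end there were intervals at 2 of the 10 genes, ELF3 and KLF5, in both libraries, while 6.43% of protein-coding genes had one there in NC and 11.9% did in KMT2D-KD. ELF3 had 3 such intervals in NC against 2 in KMT2D-KD, and KLF5 had 1 in each. From 5 to 20 kb away there were 25 intervals in NC compared with 43 in KMT2D-KD, and from 20 to 50 kb 45 and 59. By position, 29 NC intervals were upstream of the gene, 28 downstream and 33 in introns, and in KMT2D-KD these numbers were 47, 46 and 39. Thus by number the added KMT2D-KD intervals lay mainly outside the bodies of the 10 genes. Covered length within those bodies was also higher in KMT2D-KD, with a log2 ratio of 0.25. Shares by position, or by distance beyond 1000 bases, over all protein-coding windows were not computed. The RefSeq start was the same as the GENCODE 5′ end for KLF5 and GRHL1, whereas it lay 2642 bases further in for ELF3 and 3164 for EHF. Measured from the RefSeq start, the nearest interval of ELF3 was 1089 bases away in NC against 969 in KMT2D-KD. Of the 6 genes with a RefSeq promoter sequence from 250 bases before to 50 after the start (hg38), which were KLF4, KLF5, KLF6, ELF3, EHF and GRHL1, 4 held the KLF letters GGGNGGGG on either strand, as did 37.7% of all RefSeq promoters of that length. No interval of either library overlapped those 6 sequences. The share of all RefSeq promoter sequences with an overlap was not computed, so this cannot be called low.

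KMT2D and EBF2 themselves had no interval in any of the 10 windows in either condition. Their lists were short, with 238 and 293 intervals in NC compared with 318 and 311 in KMT2D-KD, and 1.25 to 1.68% of protein-coding windows held one. The nearest was a KMT2D interval of the KMT2D-KD library 0.239 Mb from the GRHL1 window. Hence H3K4me1 at these genes could not be set beside the enzyme at the same place.

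For comparison, 27 other genes of the same families and 21 genes for epithelial junctions and membrane proteases were taken as lists. Among the relatives, 17 windows held an interval in NC against 23 in KMT2D-KD, with 150 and 256 intervals in all, and at the junction and protease genes 19 and 21 windows held 133 and 223 intervals. In protein-coding genes as a whole, 75.8% of windows held an interval in NC compared with 84.5% in KMT2D-KD. More intervals in KMT2D-KD were found at 20 relatives and fewer at 2, ELF1 and ELF5, each with 4 in NC against 2 in KMT2D-KD. ELF5 is a direct relative and neighbour of EHF on chromosome 11, and its covered share went from 1.66% to 0.472%. ETV4, an ETS factor of another branch, had 22 intervals in NC compared with 43 in KMT2D-KD, and GRHL3 had 15 and 23. Among the junction and protease genes, 18 had more in KMT2D-KD and 0 had fewer. CLDN7, which encodes a tight junction claudin, had 7 and 21 intervals, EPCAM had 1 and 8, and CGN, which encodes cingulin, had 18 and 19. The median log2 ratio of covered length was 0.98 over the 9 of the 10 genes with intervals in both libraries, 1.08 over 17 relatives and 1.13 over 19 junction and protease genes, beside 0.81 over all windows with both.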

How the data were processed

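ChIP-seq of KMT2D, EBF2 and H3K4me1 was carried out in SW1990 cells. Per the study's methods, reads were filtered with perl scripts and aligned with bwa. BWA, MACS2, HOMER and hg38 are named in the submitters' processing notes, without versions, and the settings of the peak caller are not given in the sources used here. Each deposited list comes from a single ChIP library and the SW1990 input, with no pooling stated. Which condition the input cells had is not in the labels, so a difference in copy number between input and ChIP cells would enter the values. The authors gave a fold enrichment over input at each summit, which is a ratio. The deposited −log10 p and −log10 q values and the integer score are also the authors' own, and the score was not used.

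The 10 genes and all gene lists were chosen with earlier results of these data known. Intervals overlapping a GENCODE release 44 gene record with 50000 bases either side by at least 1 base were counted (pandas 2.3.3, numpy 2.4.6). No interval of the 6 lists ran past the end of an hg38 chromosome. Fragments at each summit and the mean depth were recovered by solving fold enrichment and −log10 p under a Poisson model, with a tolerance of 0.001, which gave a whole number for 99.99% of H3K4me1 intervals. Because read totals were not used, depth is known only through this model. Ratios carry intervals derived from the exact binomial (Clopper-Pearson) 95% interval (scipy 1.17.1). With 1 library per target and condition, no test was run. The genes named were all 10. Intervals named were, for each gene and list, the one of highest −log10 q, the one nearest the 5′ end and the strongest without a partner, with others chosen after their values were seen. Some summit sequences are not reported here. The scripts were tested on simulated lists. Alternatives were stricter thresholds on −log10 q and fold enrichment, equal list lengths, merging, other flanks and other overlap rules.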

Additional observations from a re-analysis of the deposited data

How the results depend on the processing

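The direction of a summed result turned once: the median log2 ratio of summit fragments at shared intervals was −0.06 for −log10 q of at least 10, beside 0.20 as reported. That median rests on few pairs, since only 4 NC intervals passed the threshold. Of 56 values recomputed for the sums over the 10 genes, 37 stayed within a set band around the reported value and 19 moved. The band was the counting interval for interval numbers and shares, and 1.5-fold for the count of genes. Covered length has no counting interval and took the band width of the number ratio. The summit median took the typical counting width of a single pair. It never left that wide band, even where its sign turned, so its place among the 37 says little about its stability. When both lists were limited to a −log10 q of 10 or more, 4 NC and 16 KMT2D-KD intervals remained. The log2 ratio of interval numbers was then 2 and that of covered length 2.65. Of the 16 KMT2D-KD intervals 18.8% were found in NC, and 4 genes had more intervals in KMT2D-KD. For −log10 q of at least 5, 66.7% of NC intervals were found in KMT2D-KD and 43.3% the other way. For fold enrichment of at least 5, 67.6% of NC intervals were found. For gene bodies alone, the log2 ratios were 0.031 for number and 0.25 for covered length, 68.1% of KMT2D-KD intervals were found in NC and 3 genes had more in KMT2D-KD. With flanks of 10000 bases, 65.0% of KMT2D-KD intervals were found and 5 genes had more. When an overlap of 50% was required, 68.5% of NC and 32% of KMT2D-KD intervals were found, and within 1000 bases 91.7% and 74.0%. Without EHF and GRHL2, a choice made after the values were seen, the log2 ratios were 0.92 and 1.12. These values were not recomputed over the whole lists, and the cause of these shifts was not tested.

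For single genes, 56 values were recomputed and 2 left the counting interval, ELF3 in the gene body alone (log2 −0.74) and EHF at a −log10 q of at least 10 (2.58). In 11 of the 56, these 2 included, the sign differed from the reported one. No paired analysis was possible because each condition had 1 library. Summits held few fragments, a median of 14 in each library over the matched intervals. Of the 58 matched pairs, 1 had a counting interval that excluded 0, which among so many intervals is not evidence of a difference. An empty window means that no interval passed the authors' threshold at this depth.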
